A study of Homo sapiens with 4 samples.

Results

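The keratins described here are 10 genes of simple and stratified epithelium, KRT5, KRT7, KRT8, KRT10, KRT14, KRT15, KRT17, KRT18, KRT19 and KRT80. They were read through every probe set, a small group of oligonucleotides on the array, that carried the symbol of 1 of these genes alone in the platform annotation. This gave 15 probe sets for 9 of the 10 genes, out of 54675 probe sets and 19775 named genes on the array. KRT17 had no probe set under this rule and is not analysed here. RNA came from the human lung adenocarcinoma line CL1-0 and from CL1-5, known as a subline of it selected for invasiveness. CL1-0 cells expressed either a control vector or the AK4 vector; CL1-5 cells expressed a non-silencing shRNA vector or an AK4 shRNA vector. All 4 cultures were stably transduced and selected with puromycin. AK4 is a mitochondrial adenylate kinase, and the study asked what its overexpression in one line and its silencing in the other change. Each group was 1 array, from 6 ug of total RNA, so neither a replicate error nor a test was possible, and the precision of each ratio is limited by the number of arrays.

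Keratins are the intermediate filament proteins of epithelial cells. A filament forms only from pairs, 1 acidic type I keratin with 1 basic type II keratin, and the pair in use marks the kind of epithelium. KRT8 (type II) with KRT18 (type I) is the basic pair of simple epithelium, including that of the lung, and KRT7 and KRT19 often accompany it. KRT5 with KRT14 is the pair of the basal layer of stratified epithelium, where KRT15 is also found, and KRT10 marks the layers above it. KRT80 is a type II keratin found in many epithelia. Loss of keratins with gain of the mesenchymal filament protein vimentin is a classic description of an epithelial to mesenchymal transition.

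Between the lines, the keratins of simple epithelium KRT8 and KRT18 differed most. Both read between 10.2 and 12.1 on the CL1-0 arrays, not far above the floor described next, and were bright on the CL1-5 arrays, whereas KRT10 was brighter on the CL1-0 arrays. Values are intensities scaled so that the 4 arrays share a trimmed mean, and a floor of 6.94, the 40th percentile over all arrays, replaced any dimmer value ahead of the log2 step. Of the 15 probe sets, 7 lay above it on all 4 arrays, 1 on 3 arrays, 3 on 2 arrays and 4 on none.

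**Figure D1:**
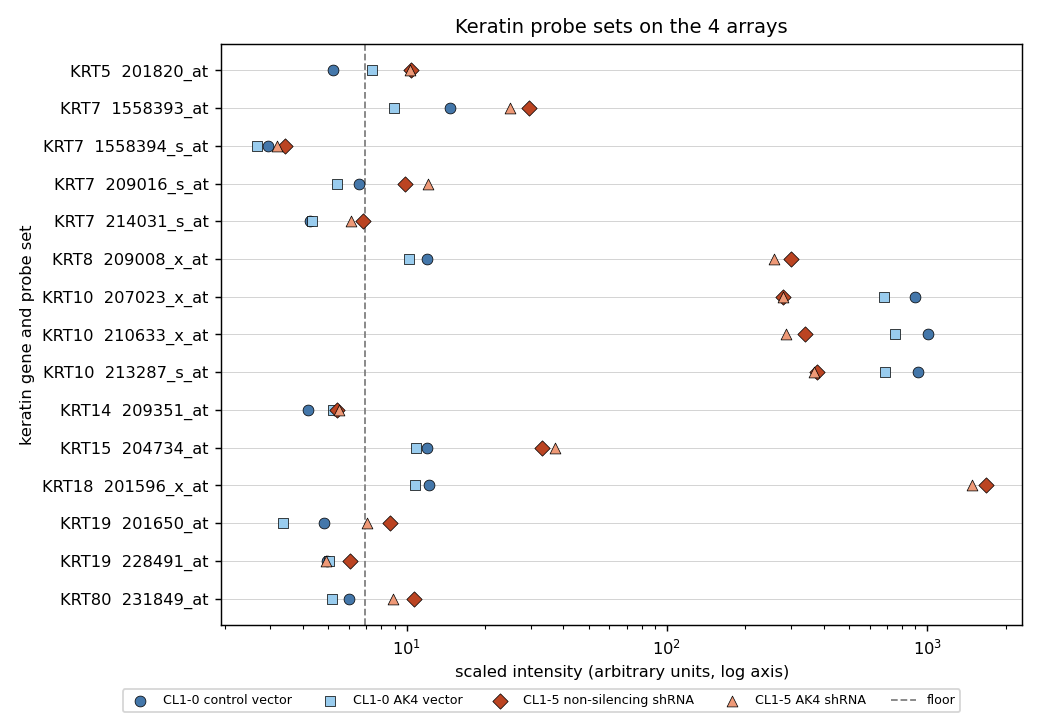
Scaled intensity (horizontal log axis, arbitrary units) of each of the 15 keratin probe sets on the 4 arrays, 1 symbol per array, with the floor of 6.94 as a dashed line. KRT8 and KRT18 lie between 10.2 and 12.1 on the CL1-0 arrays and from 258 upwards on the CL1-5 arrays, while most other probe sets lie near the floor.

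KRT18, the type I partner of the pair, had a scaled intensity of 12.1 with control vector and 10.8 on the array labelled AK4 vector in CL1-0. The CL1-5 readings were 1681 (non-silencing shRNA) and 1485 (AK4 shRNA). Both CL1-5 arrays were thus far above both CL1-0 arrays, and within a line the values lay close together. Its percentile among all probe sets of the array was 58.1 and 54.1 in CL1-0 and 99.2 and 99.1 in CL1-5. Between the control arrays this is a log2 ratio of 7.11, the 4th highest of the 13231 genes above the floor on both arrays. Among the 15969 genes above the floor on at least 1 of these arrays it was the 8th highest.

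KRT8, the type II partner, had a scaled intensity of 12.0 with control vector and 10.2 on the array labelled AK4 vector, against 299 (non-silencing shRNA) and 258 (AK4 shRNA) in CL1-5. The lines did not overlap here either. The log2 ratio between the control arrays was 4.64, the 34th highest of the same 13231 genes and the 73rd highest of the 15969. On the CL1-0 control array KRT8 had the same deposited value, 8.47, as KRT15. With CL1-0 signals this near the floor, the sizes of the KRT8 and KRT18 ratios are uncertain. Each of these genes was read by 1 probe set, 201596_x_at for KRT18 and 209008_x_at for KRT8. The ending _x_at marks probes that may be shared with other sequences. Both genes are known for many processed pseudogenes, so their values are uncertain in this respect. The pseudogene KRT8P12, named after its values were seen, had 2 probe sets. Their scaled intensities were 19.8 and 8.54 with non-silencing shRNA against 36.8 and 13.6 with control vector. This order depended on the scaling. On the intensities as deposited, the first probe set was about equal on these arrays and the second was higher with non-silencing shRNA. These values concern KRT8P12 alone. The part of shared sequences in the KRT8 and KRT18 signals was not tested.

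Both genes kept their difference when the other pair of arrays was used. CL1-5 with AK4 shRNA against CL1-0 labelled AK4 vector gave log2 ratios of 7.11 for KRT18 and 4.66 for KRT8. These arrays carry other constructs and are not replicates of the control pair.

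KRT10, the suprabasal type I keratin, was the keratin with bright signals on all 4 arrays. Its probe set 213287_s_at read 917 with control vector, 688 on the array labelled AK4 vector, 376 for non-silencing shRNA and 366 for AK4 shRNA. Probe set 207023_x_at read 899, 681, 278 and 280 in the same order, and 210633_x_at read 1005, 752, 339 and 286. All 3 were higher on both CL1-0 arrays than on both CL1-5 arrays. Their log2 ratios between the control arrays were -1.29, -1.69 and -1.57. Between the arrays labelled AK4 shRNA and AK4 vector the first was at -0.91, short of 2-fold. There 207023_x_at, at 280 against 681, and 210633_x_at, at 286 against 752, were past 2-fold.

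RefSeq promoter windows (GRCh38.p14) were matched for 3 of the 10 genes. The 250 bases before the annotated start are shown for KRT8 and KRT10, the matched members that differed most between the lines and in opposite directions. Capitals mark a TATA box, TATAAA, 1 of 4 motifs searched on both strands. The KRT8 stretch is chr12:52926470-52926719 and the KRT10 stretch is chr17:40822615-40822864, both on the minus strand, written 5′ to 3′ of the gene.
KRT8: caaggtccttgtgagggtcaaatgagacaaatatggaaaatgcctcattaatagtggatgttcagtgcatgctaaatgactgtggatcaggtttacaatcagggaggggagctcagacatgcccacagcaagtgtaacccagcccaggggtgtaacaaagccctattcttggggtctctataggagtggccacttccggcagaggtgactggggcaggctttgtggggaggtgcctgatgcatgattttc
KRT10: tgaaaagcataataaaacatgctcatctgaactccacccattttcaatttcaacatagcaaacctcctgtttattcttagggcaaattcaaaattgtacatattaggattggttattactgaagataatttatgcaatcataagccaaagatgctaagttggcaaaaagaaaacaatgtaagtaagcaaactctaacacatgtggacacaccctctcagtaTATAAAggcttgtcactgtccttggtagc
The KRT10 stretch held TATAAA from base -29 to base -24 before the start, a motif found in 10.7% of 35116 stretches of the same length. The KRT8 stretch held none of the 4 motifs. The others were GGGCGG, a box bound by SP and KLF factors, in 42.6% of stretches, TGANTCA, the AP-1 site, in 6.57%, and CACCTG, an E-box bound by ZEB and SNAI factors, in 17.5%. The third matched gene, KRT5, held CACCTG alone. A match, or the lack of one, describes the letters of these windows and not a bound site. Only 1 window per gene was searched, and the transcript whose start it precedes is not given here. Any other start of KRT8 was not searched, so the absence of motifs holds for this window alone.

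KRT15, a type I keratin of basal cells, had intermediate signals. Its 1 probe set read 12.0 and 10.9 in CL1-0 with control and AK4 vector and 33.1 and 37.1 in CL1-5 with non-silencing and AK4 shRNA. Both CL1-5 arrays lay above both CL1-0 arrays, with a log2 ratio of 1.46 between the controls. This passed 2-fold under 5 of 9 processing alternatives and lay between 0.93 and 0.98 under the other 4.

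KRT7, the type II keratin of simple epithelium, was read by 4 probe sets that did not move alike. The brightest, 1558393_at, read 14.7 with control vector, 8.91 on the array labelled AK4 vector, 29.6 for non-silencing shRNA and 25.0 for AK4 shRNA. Its log2 ratio between the controls was 1.02, at the edge of 2-fold. Probe set 209016_s_at read 6.56, 5.41, 9.86 and 12.1, a ratio of 0.51 with the CL1-0 value at the floor. The remaining 2 lay under the floor on all arrays, between 2.67 and 6.83. With the mean of the 4 probe sets the log2 ratio was 0.38.

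The remaining keratins were dim on every array. KRT5 read 5.19 and 7.35 in CL1-0 and 10.4 and 10.3 in CL1-5, and KRT80 read 5.99 and 5.16 against 10.7 and 8.89. KRT19, the simple epithelial type I keratin, read 4.83 and 3.34 against 8.63 and 7.02 for 201650_at, and stayed under the floor on all 4 arrays for 228491_at. KRT14 stayed under the floor on all 4 arrays, between 4.17 and 5.49. For KRT5, KRT19 and KRT80 the CL1-0 control value was the floor, so the log2 ratios of 0.59, 0.31 and 0.62 are lower bounds for these probe sets under this scaling. At such signals the order of the arrays also follows the whole array, since the median scaled intensity of all probe sets was 8.59 and 8.97 on the CL1-0 arrays and 12.1 and 11.7 on the CL1-5 arrays.

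Counted by gene, with the brightest probe set standing for each, 8 of the 9 keratins had at least 1 control array above the floor. Of these, KRT7, KRT8, KRT15 and KRT18 were at least 2-fold higher in CL1-5, where 17.1% of all 15969 measured genes were called. KRT10 alone was at least 2-fold lower, where 14.2% of all genes were called. The median log2 ratio was 0.82 over the 8 keratins and 0.13 over all measured genes. For KRT8, KRT15 and KRT18, both CL1-5 arrays were at least 2-fold above both CL1-0 arrays, as for 10.7% of 16256 genes. Counted in this way, no keratin had both CL1-0 arrays at least 2-fold above both CL1-5 arrays, as 9.6% of these genes had. For KRT10 the lowest CL1-0 value over the highest CL1-5 value was 1.83 by its brightest probe set. Its other probe sets, 207023_x_at and 210633_x_at, met the rule, at 2.44 and 2.22.

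**Figure D2:**
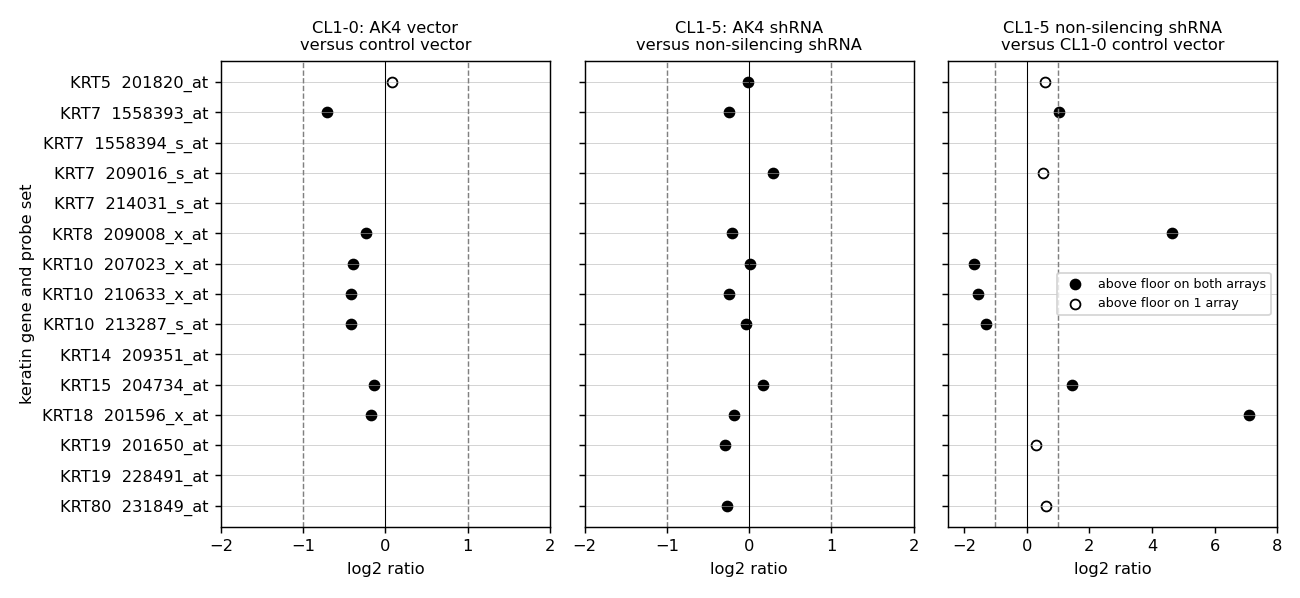
Log2 ratio (horizontal axis) of each measured keratin probe set in the 3 comparisons, 1 panel each, with dashed lines at 2-fold and filled points where both arrays lay above the floor. In the right panel KRT18 reaches 7.11 and KRT8 4.64, and in the other panels no point reaches 2-fold. The right panel has a wider axis than the other panels.

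The position of all genes in the line comparison depended on the scaling. Among called genes, 54.6% were higher in CL1-5. The share was 42.9% after quantile normalization, 42.7% after cyclic loess, 26.7% after median scaling and 90.4% on the intensities as deposited. The median log2 ratio of all genes ran from -0.30 after median scaling to 0.83 as deposited. Measured from the median of each setting, as reported or listed in advance, KRT18 lay 6.60 to 7.18 and KRT8 4.11 to 4.67 above it. KRT15 lay 0.94 to 1.50 above it, KRT7 0.20 to 1.05 above it, and KRT10 had relative values from -1.70 to -0.95. KRT5 lay 0.19 to 0.90 and KRT80 0.23 to 0.73 above it, with no value where the floor was at the 60th percentile. KRT19 had relative values from -0.084 to 0.73. A setting added later took the arrays labelled AK4 vector and AK4 shRNA in place of the controls. There KRT15 lay 1.69 and KRT7 1.42 above the median, and the other keratins given here stayed within their ranges.

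**Figure D3:**
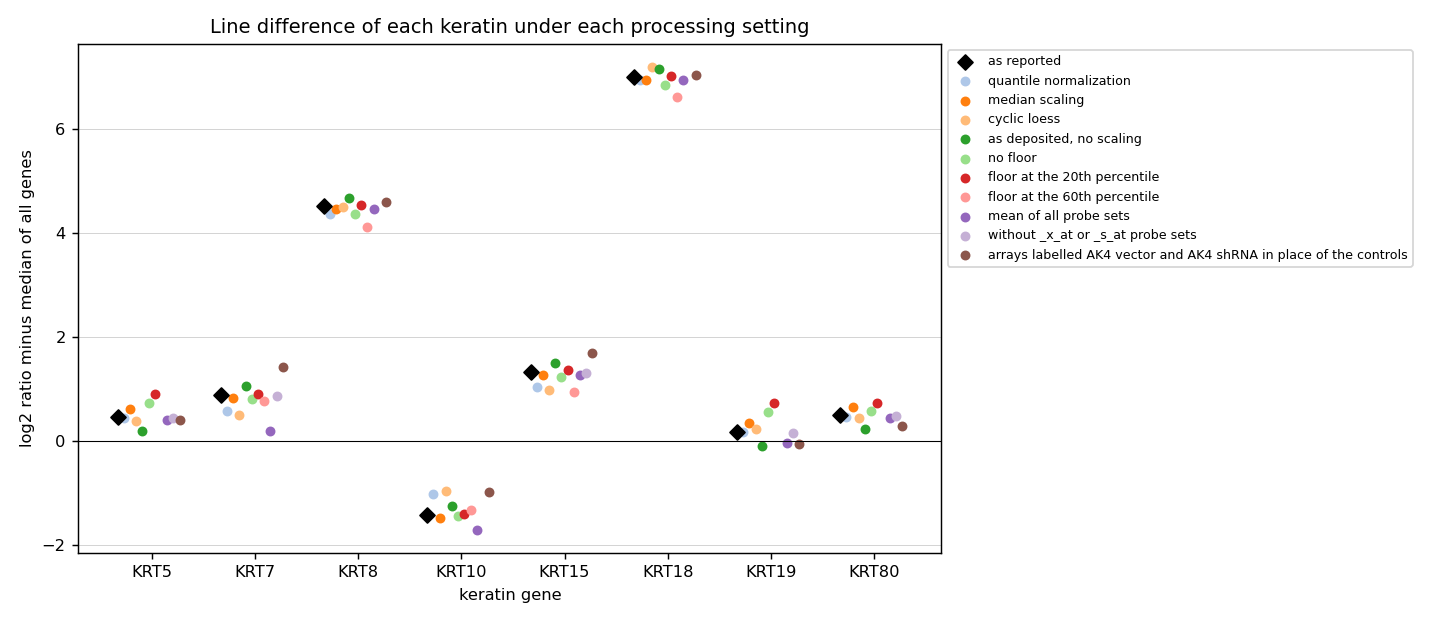
Log2 ratio between the lines minus the median of all measured genes (vertical axis) for each keratin gene under each processing setting, with black diamonds for the values as reported. KRT8 and KRT18 stay above 4 and 6 under every setting shown, KRT10 stays below 0, and KRT19 lies on both sides of 0. Settings in which neither array lay above the floor have no point. KRT8, KRT10 and KRT18 also have none without _x_at or _s_at probe sets, since they have no other probe set. KRT14 is left out.

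The array controls also differed between the lines. For beta-actin, the 3' probe set over the 5' probe set, a measure that increases as RNA degrades, was 6.04 and 6.54 in CL1-0 and 1.34 and 1.61 in CL1-5. The same measure for GAPDH was 1.25 and 1.54 against 1.04 and 1.07. The part of either in the keratin differences was not tested. Before scaling, the trimmed mean was 37.5 and 36.8 on the CL1-0 arrays and 68.5 and 69.4 on the CL1-5 arrays. An array effect shared by both arrays of a line cannot be told apart from the line itself. In bulk RNA a lower signal from fewer expressing cells and one from less RNA per cell cannot be told apart. The labels give the cells as alveolar type II. Of 9 markers of that type with a probe set, 8 and 7 were above the floor on the CL1-0 arrays and 6 on each CL1-5 array. The sodium phosphate carrier SLC34A2 was under it on all 4, and the surfactant protein gene SFTPC read between 24.0 and 30.8. The summed signals of that list were 670 and 544 in CL1-0 and 297 and 291 in CL1-5, of which the lysosomal membrane protein gene LAMP3 gave 210 and 160 against 5.08 and 4.66. The 7 fibroblast markers summed to 92.6 and 92.2 in CL1-0 and 129 and 107 in CL1-5, the 5 endothelial markers to 33.8 and 31.6 against 83.4 and 92.4, and the 4 leukocyte markers to 23.0 and 22.5 against 41.9 and 33.0. The 5 alveolar type I markers summed to 55.2 and 38.3 against 2391 and 2465, of which CAV1, a gene many cell types express, gave 2330 and 2420. Their part in the keratin differences was not tested.

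In CL1-0, no keratin differed 2-fold between the array labelled AK4 vector and the control vector. Among all 14677 measured genes, the share past 2-fold was 3.22% upwards and 1.17% downwards. Of 6 measured keratins, 5 had a log2 ratio below 0 and 1 above it, where 56.1% of all measured genes were above 0. The median was -0.20 against 0.05 over all genes. KRT10 gave -0.41, -0.40 and -0.42 with its 3 probe sets. KRT8 was at -0.24 and KRT18 at -0.17, with signals near the floor. The largest size was that of KRT7, at -0.72, and its next probe set lay under the floor on both arrays. Probe sets that read 1 gene differed among themselves in log2 ratio with a pooled SD of 0.41 here, which is no replicate error. The AK4 probe sets, which check the label, gave log2 ratios between -0.25 and -0.05 there, so the directions rest on the label.

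In CL1-5, silencing of AK4 was seen in the AK4 signal, with log2 ratios between -1.25 and -0.88 over its 4 probe sets. No keratin differed 2-fold, where the share of all 15314 measured genes past 2-fold was 0.0914% upwards and 0.0131% downwards. Of 8 measured keratins, 7 had a log2 ratio below 0 and 1 above it, where 49.7% of all measured genes were above 0. The median was -0.20 against 0.00 over all genes. For 3 of the 7 the sign changed under another setting. KRT5, at -0.019, had the same deposited value on both arrays and a ratio above 0 under 3 settings. KRT10, at -0.037, was at 0.012 after median scaling, and KRT7 was at 0.012 with all its probe sets averaged. KRT8 was at -0.21 and KRT18 at -0.18, both read far above the floor. These sizes are within the pooled SD of 0.22 between probe sets of a gene. KRT19 and KRT80, close to the floor, were at -0.30 and -0.27, and KRT15 at 0.16 was the only measured keratin above 0. KRT7 was at -0.24 by its brightest probe set and at 0.29 by 209016_s_at. On both AK4 arrays the log2 ratios of KRT8 and KRT18 to the control of their line were smaller in size than the pooled SD of the comparison. That SD comes from other genes, since KRT8 and KRT18 have 1 probe set each, and is no replicate error. Whether KRT8 or KRT18 differed from the control was not tested.

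The other keratins that could be read did not share the signals of KRT8 and KRT18. Keratins without a probe set of 1 symbol, KRT6A and KRT86 among them, were not read. All 41 probe sets of 35 further keratin genes lay at or below 23.4 on every array. Of 21 that were measured between the control arrays, 1 was at least 2-fold higher in CL1-5 and 0 were lower, beside 17.1% and 14.2% of all genes. The median log2 ratio was 0.53, or 0.14 after quantile normalization, 0.056 after median scaling, 0.039 after cyclic loess and 1.06 as deposited. The hair keratin KRT83 read 11.3 and 9.63 in CL1-0 and 20.3 and 23.4 in CL1-5, and KRT24, the gene called, read 3.77 and 4.06 against 14.0 and 12.8, with its CL1-0 values under the floor. KRT33A and KRT37 were also under the floor on both CL1-0 arrays and gave at least 0.95 and 0.86 for their probe sets. Cornified envelope genes, which build the barrier of stratified epithelium, were dim too. Of 11 measured, 1 was at least 2-fold higher and 0 were lower, again beside 17.1% and 14.2% of all genes. Their median was 0.52, or 0.12, 0.084 and 0.015 after quantile normalization, median scaling and cyclic loess. The largest ratios were those of CNFN (1.57) and the crosslinking enzyme TGM1 (0.96).

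Several genes that anchor keratin filaments at desmosomes and hemidesmosomes were brighter in CL1-5. Of 19 measured, 7 were higher and 3 lower by at least 2-fold, beside 17.1% and 14.2% of all genes. The median log2 ratio was 0.67, with values from 0.18 after median scaling to 1.40 as deposited. The integrin subunit ITGA6, part of the hemidesmosome receptor, read 30.6 and 48.4 in CL1-0 and 579 and 629 in CL1-5, a log2 ratio of 4.24. The desmosomal cadherin DSG2 was at 3.24, plakophilin PKP3 at 2.18 and the keratin linker desmoplakin (DSP) at 1.60. The 3 lower genes were the plakophilins PKP2 (-1.31) and PKP4 (-1.21), and FBF1 (-1.10), so the plakophilins did not move alike. DSP read 96.1 and 137 in CL1-0 and 291 and 420 in CL1-5, so it was also somewhat higher on both AK4 arrays, by 0.51 and 0.53. In CL1-0, 2 of 17 measured genes of this list passed 2-fold upwards with the AK4 vector label, beside 3.22% of all genes, and these, named after their values were seen, were plakoglobin (JUP, 1.51) and periplakin (PPL, 1.06).

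**Figure D4:**
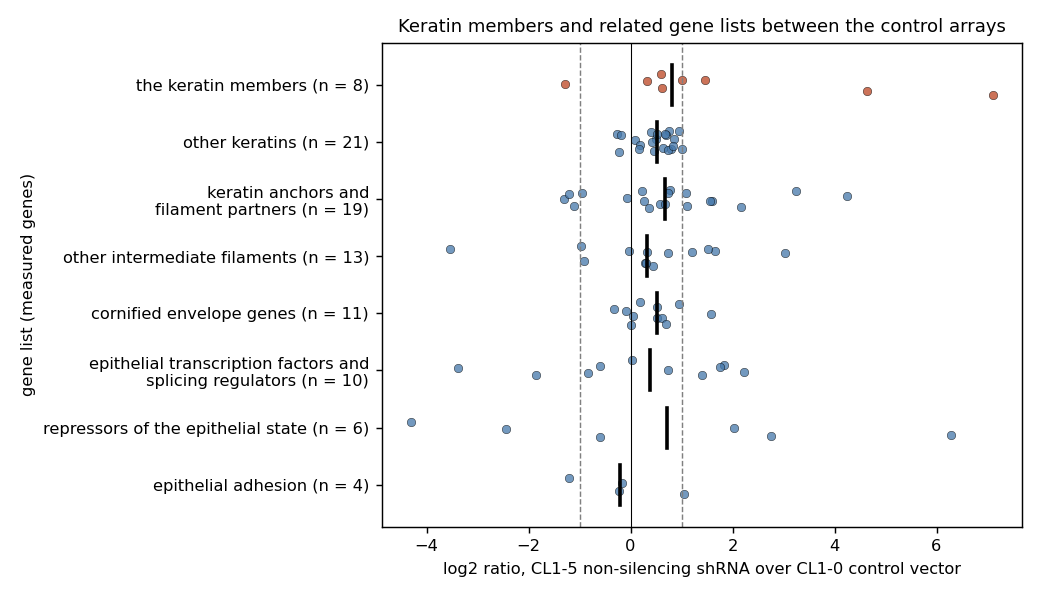
Log2 ratio between the control arrays (horizontal axis) for the measured genes of the keratin set and of 7 related gene lists, 1 point per gene, with black bars at the medians and dashed lines at 2-fold. KRT18 and KRT8 are the rightmost points of the keratin set, whose remaining members lie between -1.29 and 1.46. The separate list of other keratins lies between -0.26 and 1.01.

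Vimentin and other filament genes were read on the same arrays. Vimentin (VIM), the mesenchymal filament protein, was bright in both lines, with 4957 and 5297 in CL1-0 and 6742 and 6832 in CL1-5, a log2 ratio of 0.44 between the controls. KRT8 and KRT18 were thus bright in CL1-5 with a vimentin signal no lower than in CL1-0. Of the 13 intermediate filament genes other than keratins, VIM included, 4 were at least 2-fold higher and 1 lower. The shares of all genes were 17.1% and 14.2%. The lamins LMNA and LMNB2 were at 3.03 and 1.53, the neurofilament NEFL at 1.65 and the neurofilament NEFH at -3.54, a lower bound in size since NEFH lay under the floor in CL1-5.

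Epithelial adhesion genes did not follow KRT8 and KRT18. Only 4 of 8 were measured between the control arrays, 1 higher and 1 lower by 2-fold, beside 17.1% and 14.2% of all genes. E-cadherin (CDH1) read 3.94 and 9.81 in CL1-0 and 5.51 and 5.81 in CL1-5, and EPCAM read 3.97 and 9.46 against 3.92 and 2.79, so both were under the floor on 3 of 4 arrays. The tight junction gene OCLN was at -1.21, CLDN3 at 1.05, CLDN4 at -0.23 and TJP1 at -0.17. Among repressors of the epithelial state, 3 of 6 were at least 2-fold higher and 2 lower, beside the same shares of all genes. SNAI2 read 3.48 and 3.29 in CL1-0 and 544 and 648 in CL1-5, at least 6.29 on the log2 scale for its probe set. TWIST2 was at 2.75 and TWIST1 at -4.31. ZEB2 was at -2.44, a lower bound in size since it lay under the floor in CL1-5. Epithelial transcription factors and splicing regulators divided likewise, with 4 of 10 higher and 2 lower, again beside 17.1% and 14.2% of all genes. KLF4 was at 2.22, ELF3 at 1.83, CEBPB at -1.85 and KLF5 at -3.37, while GRHL2 lay under the floor on all 4 arrays.

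The likeness of other genes to KRT8 and KRT18 was measured as the root mean square difference of log2 values, centred on each gene's mean, over the 4 arrays. It was taken among 12797 genes above the floor on all arrays, and with 4 arrays it mostly describes the size of the difference between the lines. The nearest to KRT8 were S100A4 at 0.098, CDC42EP3 at 0.10 and S100A16 at 0.16. The nearest to KRT18 were the protease PRSS23 at 0.19, the growth factor binding protein IGFBP4 at 0.21 and TMEM158 at 0.25. KRT8 and KRT18 differed from each other by 1.23, which placed KRT8 27th in likeness to KRT18 and KRT18 285th in likeness to KRT8. KRT19 was under the floor in CL1-0 and has no value of this kind.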

How the data were processed

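RNA of 4 cultures was hybridised in 1 colour to Affymetrix arrays, 1 array per group, with groups taken from the titles. The authors deposited linear intensities for each probe set. MAS5 is named per the submitters' processing notes. What it was used for, its version and any background correction: not given in the sources used here. Arrays were rescaled to a common trimmed mean (2% removed at each end, 62 control probe sets left out), floored at the 40th percentile over all arrays and taken to log2. Probe sets were named where the platform annotation gave 1 gene symbol (41097; 1801 had several and 11777 none listed), with 99.9% of symbols updated through the gene identifier. Each gene was represented by the probe set of highest mean log2 level, counted as measured with at least 1 of both arrays above the floor, and called at 2-fold. The naming rule took every keratin member, AK4, up to 4 genes per list with the largest ratio between the control arrays, and the 3 genes nearest to KRT8, KRT18 and KRT19. VIM, CDH1, EPCAM, GRHL2, SLC34A2, SFTPC, CAV1, PKP2, PKP4, FBF1 and KRT8P12 were named outside it, after their values were seen. The members and lists were chosen with earlier results of these data known. In all, 9 alternative settings were listed in advance and 1 was added later. The 2-fold rule was also run on simulated data, with results not given here, which is no check of the calls on these arrays. Python 3.11.15, numpy 2.4.6, pandas 2.3.3 and limma 3.58.1 were used.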

Additional observations from a re-analysis of the deposited data

How the results depend on the processing

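No paired analysis was possible because each group was 1 array, and no array could be left out. In both AK4 comparisons, the count of keratins at least 2-fold higher or lower was 0 under all 9 alternative settings listed in advance. Between the control arrays, the count of higher keratins was 4 as reported, 6 as deposited, 5 with the lower floor of the 20th percentile, 3 without a floor or with probe sets averaged, and 2 after quantile normalization, median scaling or cyclic loess, with the floor at the 60th percentile, and when _x_at and _s_at probe sets were left out. The last setting holds no value for KRT8, KRT10 or KRT18, whose probe sets all end that way. Under the first 4 settings that gave 2, KRT7 (0.44 to 0.82) and KRT15 (0.93 to 0.98) fell short of 2-fold. KRT7 also did so with no floor (0.97) and with its probe sets averaged (0.38). A keratin not measured in a setting has no value there. The count of lower keratins was 1 as reported and 0 on the intensities as deposited, where KRT10 was at -0.42, without _x_at or _s_at probe sets, and with the arrays labelled AK4 vector and AK4 shRNA in place of the controls, an alternative chosen after seeing the data. The count with both CL1-5 arrays at least 2-fold above both CL1-0 arrays was 3. It was 5 as deposited, 1 without _x_at or _s_at probe sets, and 2 under quantile normalization, median scaling, cyclic loess or the floor at the 60th percentile. The mirror count was 0, and 1 after median scaling or when all probe sets of a gene were averaged. Where they had a value, KRT18 ran from 6.62 to 7.98 and KRT8 from 4.15 to 5.51 on the log2 scale. No called ratio reversed its sign. Dim signals, without detection calls, limit what can be said of KRT5, KRT14, KRT19 and KRT80.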

Other observations

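In the RefSeq annotation (GRCh38.p14) KRT8 and KRT18 neighbour each other on chromosome 12, and KRT18 ends the row of keratin genes there. The genes around them were looked up after the values of KRT8 and KRT18 were seen. On the KRT8 side, KRT78, KRT79, KRT4, KRT3 and KRT76 had log2 ratios of 0.53, 0.73, 0.69, -0.26 and 0.63 between the control arrays (a bound for KRT79, under the floor in CL1-0), with signals no higher than 15.5 on any array. On the other side, the translation initiation factor EIF4B was bright in both lines, at 672 and 722 in CL1-0 and 505 and 527 in CL1-5. Beyond it, SPRYD3 was at -0.34 and SOAT2 at 0.61. TNS2 and the growth factor binding protein IGFBP6 were higher in CL1-5, by at least 1.29 and 2.54 for their probe sets, since both lay under the floor on the CL1-0 control array. KRT15 and KRT19 also neighbour each other, on chromosome 17, and had log2 ratios of 1.46 and 0.31.

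Some probe sets had the same deposited value, to every digit, on both arrays of a line. This held for 4502 probe sets (8.23%) in CL1-0 and 3287 (6.01%) in CL1-5, and for 0 in the 4 pairs of arrays from different lines. Among the keratins it held for 214031_s_at of KRT7 and 228491_at of KRT19 in CL1-0 and for the probe set of KRT5 in CL1-5. The step that gave these ties is not given in the sources used here.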
